A study of Homo sapiens with 20 samples.

Results

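The guides described here are 390 of the 6211 guides of a pooled screen in A375, an established melanoma line. They were chosen by guide number alone. Guides 1 to 4719 were cut into 39 grids of 11 rows by 11 columns, and column 1 of rows 2 to 11 was taken from each grid. In every grid the first corner (row 1, column 1) is the starting place of both axes, so these guides follow the row axis while the column axis stays at its first place. The labels call the screen a dual titration but do not say what was titrated, so row and column numbers are an order and not a dose. The table pairs no guide with a sequence or a gene, so no sequences are shown and guides are named by number.

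Guide amplicons were sequenced from the genomic DNA of 6 libraries, 3 at each day. All 6 came from A375 cells that carried a nuclear RfxCas13d under doxycycline control. The cells received the lentiviral guide library at low multiplicity of infection, in separate infections per replicate, and were selected with puromycin. Doxycycline was then given to induce the nuclease, with puromycin and blasticidin in the medium. Day 0 is the start of induction and serves as the control, and no library without doxycycline at day 14 or without the nuclease was analysed here. The labels do not say whether the engineered line is a single clone.

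RfxCas13d is an RNA-guided nuclease that cuts RNA and leaves the genome unedited. A guide directs it to a transcript, and the level of that transcript falls. In a growth screen, a cell whose guide lowers a transcript needed for growth divides more slowly. The guide integrated in its genome then becomes rarer relative to guides without such an effect. Guide abundance at day 14 against day 0 is therefore the readout, and it measures growth or survival rather than the target transcript. Guides of 1 grid column may share a target, and the table does not tell whether they do.

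Abundances are given as deposited signal, a normalised value per guide and library. Depth, in reads recovered from the steps of the values, lay between 494672 and 1684142 per library. Members had a median of 226, 146.5 and 269 reads at day 0 and 186, 229.5 and 134 reads at day 14. The lowest member stood at 6 reads, and 0 members in any library lay at the lowest level of the table, which held between 469 and 482 guides in each day 14 library. The 1372 guides numbered after the grids had median signals between 162.5 and 168.5 in the 6 libraries, and this is why the deposited scale was kept. The median of the other grid guides lay between 182.7 and 207.4 at day 0 and between 34.6 and 36.4 at day 14. The signal is therefore not a share of all guides, and a change in signal is not a change in share. On a scale that sets the trimmed mean of all guides equal, every change in level given below is about 1.41 higher on the log2 scale, while slopes and differences between guides do not move.

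Of the 390 first-column guides, 331 did not change past the test threshold over 14 days. The geometric mean signal of the 390 members was 180.6, 184.0 and 198.4 in the 3 day 0 libraries. It was 172.4, 165.3 and 160.5 at day 14. The days did not overlap, and day 0 replicate 3 was the highest. The mean log2 signal moved from 7.55 ± 0.07 (SD, n = 3) to 7.38 ± 0.05 (SD, n = 3), a change of -0.18. The exact two-sided permutation test gave p = 0.1, the smallest that 20 regroupings of 3 against 3 libraries allow. Without day 0 replicate 3 the change was -0.13. The median member changed by -0.02, against -1.15 for the median of all 6211 guides.

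By limma's moderated test with Benjamini-Hochberg adjustment over all 6211 guides, 43 members fell and 16 rose. On the trimmed mean scale 8 fell and 308 rose. Of all guides 51.2% were called lower and 1.63% higher, against 11% and 4.1% of the members. Among the guides numbered after the grids 5.32% were lower and 3.43% higher. The share of members that fell was thus far below that of the whole table and above that of the guides after the grids. The share that rose was close to that of the guides after the grids. Because so many guides in the table fell, the adjusted threshold corresponded to an unadjusted p of 0.0264. The 43 lower members changed by between -4.37 and -1.06, with a median of -1.75. The 16 higher members changed by between 0.83 and 1.40, with a median of 1.01. In 62 members all day 14 values lay below all day 0 values and in 34 all lay above, against 55.1% and 3.9% of all guides. The number of higher members was 7, 8 and 8 without day 0 replicates 1, 2 and 3, while the lower members numbered between 31 and 50 with any library left out.

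The falls lay in the late rows. Averaged over the 39 grids, rows 2 to 7 did not pass the test, and rows 8, 9, 10 and 11 fell. In the fit over all grid places 92.6% were called lower and 0% higher, the latter with 0 at an unadjusted p under 0.05. On the trimmed mean scale 0 of the 10 first-column rows fell and 10 rose. Row 2 had geometric mean signals of 178.9, 183.8 and 193.7 on day 0, then 187.3, 155.8 and 166.4 on day 14, and the days overlapped. Its change was -0.13 ± 0.11 (SE) with a 95% interval from -0.34 to 0.08. Rows 3, 4 and 5 were at 0.00, 0.00 and 0.01, each with the same SE, and the interval of row 5 ran from -0.20 to 0.22. Row 6 was at -0.13 and row 7 at -0.19.

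Row 8 was at -0.21 with an unadjusted p of 0.0428 and an adjusted p of 0.0463 by limma. It missed the threshold without any of the libraries in turn except day 14 replicate 1, with adjusted p between 0.065 and 0.134. Row 9 stood at -0.34 (adjusted p = 0.00142) and row 11 at -0.35 (adjusted p = 0.00105). Row 10 was the lowest, at -0.41 ± 0.11 (SE, adjusted p = 0.000142 by limma). Its geometric mean signals fell from 184.7, 186.7 and 189.1 to 147.5, 139.8 and 135.1, with no overlap. That left 75.3% of the day 0 level. Rows 9, 10 and 11 differed among themselves by less than their SE of 0.11, so the order of these 3 rows is not resolved. The intervals of rows 2 to 5 did not reach the estimate of row 10. That estimate had an interval of its own, from -0.62 to -0.20, and the interval of row 2 overlapped it. Single rows were not tested against each other.

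A contrast that no scaling of libraries can move gave the same picture. The mean of rows 9 to 11 less that of rows 2 to 4 was 0.00, -0.01 and 0.00 in the day 0 libraries. It was -0.31, -0.32 and -0.34 at day 14. The change was -0.32, many times the spread between libraries (SD 0.01 at day 0 and 0.02 at day 14, n = 3 each). The exact permutation p was again 0.1, the smallest possible.

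The calls of single guides followed the rows as well. Of the 43 lower members, 9 stood in rows 2 to 6 and 34 in rows 7 to 11. Row 10 held 8 of them and row 11 held 11, out of 39 guides in each row. The 16 higher members were spread as 5 in rows 2 to 6 and 11 in rows 7 to 11, with 5 of them in row 10. Members of late rows thus went both ways. The SD of the change over grids was 1.15 in row 10 and 1.05 in row 11. It was 0.51 in row 3 but 1.01 in row 2, so a wide spread was not confined to late rows. The median change of a row over grids lay between -0.07 and 0.05 in rows 2 to 8. It was -0.21 in row 9, -0.26 in row 10 and -0.04 in row 11, and 25 of 39 grids were below 0 in row 9 and likewise in row 10.

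Each grid was then tested for itself, with the mean log2 signal of its 10 first-column members per library. By limma, with adjustment over the 429 lines of 39 grids and 11 columns, 8 first columns fell and 3 rose, and 28 did not pass the test. Of all 429 lines 80.9% were called lower and 1.4% higher. Because so many lines fell, the adjustment was light. The first column of grid 12, called higher, had an unadjusted p of 0.0295 and an adjusted p of 0.0361 by limma. For means, and for the slopes below, the adjustment holds over all lines and not over the 39 first columns alone. On the trimmed mean scale 1 first column fell and 34 rose, and grids 29 and 30, described below as lower, stood at 0.14 and 0.23. The 28 uncalled first columns lay between -0.29 and 0.39, and their intervals together reached from -0.62 to 0.78. The 8 lower grids (4, 7, 9, 10, 16, 24, 29 and 30) held 36 of the 43 lower members, and the other 31 grids held 7. Averaged over those 31 grids, row 2 was at 0.09, row 10 at 0.00 and row 11 at 0.04. Over the 8 lower grids the same rows were at -0.98, -2.01 and -1.86. These grids were set apart by the values averaged here, so the contrast is a description.

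A slope of log2 signal on row number, over rows 2 to 11, separates a graded column from a uniformly low one. By limma 9 of 39 first columns had a slope that fell from day 0 to day 14 and 4 had one that rose. Of all 429 lines 73.2% were called with a falling slope and 0.932% with a rising one. Both the mean and the slope fell in 5 grids, namely 9, 10, 16, 29 and 30. In grids 18, 27, 35 and 38 the slope fell and the mean did not pass the test. The rising slopes were those of grids 1, 6, 12 and 24, and these 4 were the only rising slopes called among the 429 lines. Their number was 0, 1 and 1 without day 0 replicates 1, 2 and 3, 2 without day 14 replicate 3, 2 with the replicate number as a block, and 2 with the ends of the column in place of the slope. In grid 1 the slope rose by 0.15 per row (SE 0.05, adjusted p = 0.0202 by limma), with rows 2 to 8 between -0.44 and 0.03 and rows 9, 10 and 11 at 0.38, 1.02 and 1.31.

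Grid 16 had the lowest first column of all. Its geometric mean signal went from 188.2, 184.9 and 189.4 to 53.5, 50.5 and 55.8. The libraries of a day were close together and the days far apart. The change was -1.82 ± 0.14 (SE, n = 3 per day, adjusted p = 1.29e-08 by limma), which left 28.4% of the day 0 level. Its members already stood at -0.67 in row 2 and -0.72 in row 3, which did not pass the test. All 8 members from row 4 on were called lower: -1.41 in row 4, -1.31 in row 5, -1.65 in row 6, -2.81 in row 7, -2.34 in row 8, -3.30 in row 9, -2.09 in row 10 and -1.86 in row 11. Row 9 was the lowest and rows 10 and 11 were less low, but the guides of rows 9 and 11 varied widely between the day 14 libraries. The guide of row 9, uid_1904, was at 12.8, 9.43 and 72.1, and that of row 11, uid_1926, at 13.8, 123.7 and 24.3. The slope fell by 0.21 per row (SE 0.05, adjusted p = 0.00506 by limma).

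Grid 10 was next, at -1.56 ± 0.15 (SE, n = 3 per day, adjusted p = 2.18e-07 by limma). Its geometric mean signal went from 179.8, 205.3 and 200.3 at day 0 to 76.7, 60.7 and 61.6 at day 14, with no overlap. Rows 2 to 5 lay between -0.77 and 0.22 and none of these 4 was called. Rows 6 to 11 were all called lower, at -1.56, -2.19, -2.73, -2.11, -3.63 and -2.06. The lowest was uid_1189 of row 10, which had signals of 178.9, 225.2 and 158.0 at day 0 and 25.6, 9.43 and 13.9 at day 14.

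Grid 30 showed a break at the same place. Its first column changed by -1.18 ± 0.15 (SE, n = 3 per day, adjusted p = 3.97e-06 by limma), from 167.4, 183.7 and 193.7 to 87.6, 70.2 and 83.1. Rows 2 to 5 lay between 0.30 and 0.92, and none was called. Rows 6 to 11 were all called lower, at -1.75, -1.56, -3.69, -1.45, -3.30 and -2.08. Its slope of -0.43 ± 0.04 (SE, adjusted p = 2.63e-05 by limma) was the steepest of the 39 first columns, although the values fell in a step and not evenly. The guide of row 8, uid_3587, was at 229.0, 232.9 and 171.5 at day 0 and 23.6, 6.37 and 28.1 at day 14, a change of -3.69 ± 0.62 (SE).

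Grid 29 was the most evenly graded. The rank correlation of change with row number was -0.94 over its 10 rows, given as a description. Its first column changed by -1.27 ± 0.15 (SE, n = 3 per day, adjusted p = 2.29e-06 by limma), from 173.2, 167.4 and 202.8 to 82.6, 76.9 and 66.1. The members went from 0.20 in row 2 through -0.84 in row 5, -1.16 in row 7 and -2.24 in row 9 to -2.74 in row 10 and -2.18 in row 11. Rows 7 to 11 were called lower and rows 2 to 6 were not. Row 6 stood at -1.33, but its guide uid_3444 was at 225.4, 53.9 and 23.0 at day 14, above and below the day 0 values of 153.9, 168.5 and 172.2.

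Grids 4 and 24 had a different shape, with 1 early guide far below its neighbours. The deepest falls of all members were uid_2795 and uid_0375, the row 2 guides of these 2 grids. Signals of uid_2795 went from 238.2, 212.3 and 155.03 to 12.8, 7.90 and 8.75. It changed by -4.37 ± 0.51 (SE, adjusted p = 1.56e-05 by limma), which left 4.83% of the day 0 level. Signals of uid_0375 went from 216.5, 248.4 and 258.2 to 15.8, 16.3 and 19.1, a change of -3.82 ± 0.47 (SE, adjusted p = 2.27e-05 by limma). Row 3 stood at -0.09 in grid 4 and -0.50 in grid 24, and neither was called. The last row was called lower in both, at -2.29 in grid 4 and -1.71 in grid 24. With its lowest value at the start, the first column of grid 24 fell by 1.11 in the mean while its slope rose by 0.12 per row (adjusted p = 0.048 by limma). Without these 2 guides the mean of row 2 over the other 37 grids was 0.08. Over columns 2 to 11 all rows of these grids were low. Row 2 averaged -3.62 in grid 4, where the other rows lay between -4.90 and -2.22. It averaged -4.83 in grid 24, where they lay between -5.75 and -3.47. Grids 7 and 9 fell less, by 0.66 and 0.50 in the mean, and were lowest late. Grid 7 reached -1.56 in row 11 and grid 9 reached -1.26 in row 9, each with 2 members called lower.

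Grids 33 and 13 had the highest first columns. Grid 33 went from 129.1, 129.9 and 138.6 at day 0 to 180.4, 232.8 and 182.8 at day 14, with no overlap and with day 14 replicate 2 above the others. The change was 0.57 ± 0.15 (SE, n = 3 per day, adjusted p = 0.0031 by limma). Grid 13 went from 151.1, 156.9 and 168.9 to 200.4, 242.8 and 231.7, a change of 0.50 ± 0.15 (SE, adjusted p = 0.00613 by limma). All 10 members of grid 33 were above 0, and 2 of them were called, in rows 8 and 10. In grid 13 only row 6 was called, at 1.23. The highest member of grid 33, at 1.5 in row 11, was not called. Its day 0 signals of 21.05, 38.4 and 71.3 were low and far apart.

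The 3 highest called members were late or middle guides of other grids. Signals of uid_1442, row 11 of grid 12, rose from 229.0, 158.2 and 211.1 to 662.4, 417.3 and 508.9, a change of 1.40 ± 0.35 (SE, adjusted p = 0.00432 by limma). Signals of uid_0298, row 6 of grid 3, went from 102.9, 97.6 and 92.2 to 221.5, 187.3 and 340.9, a change of 1.31. Signals of uid_0111, row 11 of grid 1, went from 169.7, 207.1 and 120.6 to 343.5, 368.2 and 507.6, also a change of 1.31. In all 3 guides the days were apart. The neighbours of uid_0298 in grid 3 in rows 5 and 7 were at -0.78 and -0.97, and neither was called. In grids 1 and 12 row 10 was also called higher, at 1.02 and 0.86.

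Grids that lie 20 apart in number were set side by side, a distance chosen from an earlier look at whole grids of these data. The first-column means of the 19 such pairs correlated with r = 0.70 and a rank correlation of 0.83. These are descriptions across grids that share all 6 libraries. The median difference within a pair was 0.16, against 0.41 for the 722 other pairs of grids. In 3 pairs both first columns were called lower (4 and 24, 9 and 29, 10 and 30), and in 2 pairs 1 of them was. The pair of grids 16 and 36 was the widest apart, at -1.82 and -0.19. The shape over rows was less alike. After each row's mean over grids was removed, the profiles of a pair correlated over 10 rows with a median r of 0.39, from -0.46 to 0.90, against a median of -0.03 in the other pairs. Of all other grids, the partner had the most similar profile in 3 of 19 cases.

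Compared with the first row, which follows the column axis while the row axis stays at its first place, the first column stood higher at day 14. Of the 390 first-row guides 87 (22.3%) fell and 12 (3.08%) rose. The mean of the first column less that of the first row, over grids, went from 0.00, 0.07 and -0.02 on day 0 to 0.42, 0.37 and 0.40 on day 14. The change of 0.38 had an exact permutation p of 0.1, the smallest possible. By limma over the 39 grids the first column stood above the first row in 20 grids (51.3%) and below it in 6 (15.4%). The 6 grids with the lower first column were 2, 9, 10, 16, 29 and 30. In the 4 with the lowest first columns (10, 16, 29 and 30) the first row changed by between -0.20 and 0.30. The largest opposite differences were those of grid 27, at 2.19 ± 0.23 (SE), and grid 7, at 2.13 ± 0.17 (SE). In grid 7 the first row was at -2.79 and the first column at -0.66. A mean below -1 was reached by 6 first columns and by 8 first rows, and by both in 0 of the 39 grids. Grids 4 and 24 were close to it, with first columns at -1.03 and -1.11 and first rows at -0.996 and -0.924, and in neither did column and row differ past the threshold. Over all 39 grids, first-column and first-row means correlated at r = -0.12, with a rank correlation of -0.19. With counts this small the 0 is not read as a pattern.

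A step of 1 column changed the picture. The mean change over rows 2 to 11 was -0.18 in column 1, -1.27 in column 2 and -4.21 in column 11. Row 11 averaged -0.35 in column 1, -2.01 in column 2 and -5.37 in column 11. The first column fell in 8 grids, the second in 27 and the last in 38. The mean slope was -0.04 per row in column 1, -0.17 in column 2 and -0.30 in column 11. Per library, the slope in column 1 less that in column 11 went from 0.00, -0.01 and -0.01 on day 0 to 0.27, 0.26 and 0.22 on day 14. The change of 0.25 had an exact permutation p of 0.1. By limma the first column had the flatter slope in 25 of 39 grids (64.1%) and the steeper in 0 (0%), with 0 at an unadjusted p under 0.05. Column 11 was close to the bottom of the scale. At its last place 44 of 117 day 14 values lay at the lowest level, which limits how steep its slope could be. With a pseudocount of 10 the difference was 0.13, and 20 grids were called flatter and 1 steeper.

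In grid 30 the 2 slopes were -0.43 in column 1 and -0.47 in column 11, a difference of 0.04 with a 95% interval from -0.10 to 0.19. In grid 29 the difference was -0.06, with an interval from -0.21 to 0.09. In these grids no difference in slope was detected between the first and the last place of the column axis. Grid 10 differed, at -0.35 in column 1 and -0.60 in column 11 (adjusted p of the difference = 0.00298 by limma). So did grid 16, at -0.21 and -0.39 (adjusted p of the difference = 0.0204 by limma). The rows that were low in column 1 were also the low rows elsewhere in these grids. Over 10 rows, the first-column change was correlated with the mean change of the same row in columns 2 to 11. The r was 0.97 in grid 10 and in grid 30, 0.91 in grid 29 and 0.82 in grid 16. Across the 8 lower grids r ran from 0.53 to 0.97, and over all 39 grids it was above 0 in 27, with a median of 0.27. These correlations describe guides counted in the same libraries.

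Members above 0 stood beside losses in column 11 about as often as all 390 members, which include them. Their share beside deep losses was somewhat lower, a gap that was not tested. Of the 186 members above 0, 183 had a change below 0 at the same row in column 11, as did 381 of all 390. A change of -4 or lower there was found beside 100 of the 186 (53.8%) and beside 238 of the 390 (61%). In grid 33 rows 2 to 11 averaged 0.57 in column 1 and -6.06 in column 11, and in grid 13 they averaged 0.50 and -5.61. The 16 higher members had column 11 values between -6.69 and -2.61 in their rows, where the median of all 390 was -4.84. For 13 of these 16 the value was below -4, so the called members did not share the lower proportion. The correlation over 10 rows between column 1 and the mean of columns 2 to 11 was -0.82 in grid 12, the lowest of all grids, -0.30 in grid 33 and -0.04 in grid 13. The first row of these grids was not at 0 either, at -0.89 in grid 33, -0.45 in grid 13 and -0.84 in grid 12.

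Replicates of single members agreed only in part. Over the 390 members log2 signal at day 14 correlated at 0.57, 0.61 and 0.64 between pairs of libraries. The median gap between the highest and the lowest replicate of a member was 0.56 at day 0 and 0.94 at day 14 on the log2 scale. Signals above 700 at day 14 were found in 4 members of replicate 1 and in 0 members of replicates 2 and 3. The highest, uid_2201 of grid 19 in row 3, was at 1617 in replicate 1 and at 303.8 and 210.4 in the others, after 325.9, 307.6 and 516.2 at day 0. None of these 4 was called. Among the 43 lower members 3 had overlapping days (uid_1145, uid_1926 and uid_1057), and 0 of the 16 higher members did. The values of grids and rows, which average 10 and 39 guides, are therefore firmer than those of single guides. The p-values measure the spread between separate infections of a single cell line. For the rows this spread was pooled over all places.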

How the data were processed

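Guide amplicons were sequenced from genomic DNA of 6 A375 libraries. The deposited values are signal, and how the authors normalised them is not given in the sources used here. Among tools and builds, cutadapt 1.13, Bowtie 1.1.2 and GRCh38 are listed per the submitters' processing notes. After 1 was subtracted, 100% of values were whole multiples of a library's step (tolerance 0.01), and these multiples are called recovered reads. The meaning of the lowest multiple (1 read, or none plus 1) is not known.

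Log2 signal (pseudocount 0) was fitted with limma 3.58.1 in R 4.3.3, day 14 against day 0, with a variance trend on the mean for single guides and without it for means and slopes. Averages over all grids were compared between days by exact two-sided permutation tests over the 20 regroupings of 6 libraries. The threshold was an adjusted p of 0.05 (Benjamini-Hochberg). The scripts were tested on simulated data. Named were the 4 lowest and 2 highest first columns and the 3 lowest and 3 highest called members; other grids and single guides were added after their values were seen. Members, lists and tests were chosen with earlier results of these data known. A quasi-likelihood count test was intended and not run, since the values are signal. Voom was run on recovered reads as an alternative only. The 120 guides of a short grid were left out of the grid results. The alternatives were other scalings, pseudocounts, a filter, variance priors, a replicate block, voom and each library left out.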

Additional observations from a re-analysis of the deposited data

How the results depend on the processing

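On the trimmed mean scale, whose day 14 factors lay -1.41 from those of day 0, 8 members fell and 308 rose, 1 first column fell and 34 rose, and 0 rows fell and 10 rose. The mean member change was then 1.24, grid 29 was at 0.14, grid 30 at 0.23, grid 10 at -0.15, and rows 2, 4, 6, 7, 8, 9, 10 and 11 at 1.28, 1.41, 1.28, 1.23, 1.20, 1.07, 1.01 and 1.06. The shift is the construction of that scale, and slopes and differences between lines do not move with it. When calls also needed a log2 change of 1 or more in size, 9 members rose. With a pseudocount of 10, 1 grid had a steeper slope in column 1 than in column 11. The rising slopes numbered 2 with the ends of the column in place of the slope, and with a variance trend, chosen after seeing the data, 5 first columns rose. With a library left out, the higher members numbered between 7 and 19 and the rising slopes between 0 and 6. Of the counts and means over the first column recomputed under the alternatives, 182 kept their direction and their size within 1.5 times or the same side of the threshold, 18 counts moved further and 1 mean reversed. The means had exact permutation tests, whose p cannot go below 0.1. They could therefore not cross the threshold, and only their direction was open to change. With the median over members, also added after seeing the data, the column changed by -0.12. The planned quasi-likelihood test on recovered reads was not run.

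The labels name separate infections but do not say that a number marks the same infection on both days, so same-numbered libraries were not treated as paired. Their deviations correlated at 0.00, 0.03 and 0.01 over all guides. A replicate block gave 47 lower and 15 higher members, 2 rising slopes in place of 4, and a rising slope for grid 33 (adjusted p = 0.0431 by limma, 0.0589 without the block).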
